A study of Mus musculus with 9 samples.

Results

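The expression of 42 genes for DNA replication and S phase was examined in mouse liver. They were taken from a fixed list of names, among 20965 genes that had at least 1 probe on the array, and all 42 had a probe. Expression had been read on 9 one-colour arrays of total liver RNA, from 3 groups of 3 male mice at 20 weeks of age. STAM mice were given streptozotocin at birth and then a high-fat diet, which leads to diabetes, fatty liver disease and liver tumours. STAM-NON mice received no further treatment, STAM-INS mice were the same model treated with insulin, and Normal mice were neither given streptozotocin nor fed the high-fat diet, as the methods describe them. The methods name injections of insulin glargine and of insulin degludec at this age, without saying which was given to the mice of the arrays. They also do not say whether the liver pieces used for RNA held tumour tissue. The labels give no separate litters or batches. The p-values weigh differences of group means against the spread between mice within the groups.

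Before a cell copies its DNA, the origin recognition complex with Cdc6 and Cdt1 loads the MCM helicase ring onto replication origins, and geminin (Gmnn) holds Cdt1 in check once S phase has begun. Cdc45 and the GINS complex turn the ring into a working helicase, and the polymerases, the sliding clamp Pcna and its loader (the Rfc subunits) follow it. Ribonucleotide reductase, thymidine kinase and thymidylate synthase supply the nucleotides, and many of these genes are targets of E2F transcription factors. Hepatocytes of the adult liver are mostly quiescent and re-enter the cell cycle after injury or loss of tissue.

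The replication genes did not move as a block in STAM liver. A small group of helicase subunits (Mcm2 and Mcm5), the polymerase subunit Pold1 and the transcription factor E2f2 were higher in STAM-NON than in Normal mice, while Mcm10 and thymidine kinase Tk1 were lower. In STAM-INS mice Pold1 and E2f2 were again higher than in Normal mice, and Tk1, Mcm10, Cdc45 and Gmnn were lower. No member passed the threshold between STAM-INS and STAM-NON. Tk1 was the only member called against Normal under each of the alternative settings fitted, in both STAM groups.

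Many S-phase promoters carry E2F sites, and CCAAT boxes, which bind the factor NF-Y, are also common in cell-cycle promoters. Promoter windows from 250 bases before to 50 bases after the start were taken from RefSeq (build GRCm38.p6) and searched on both strands for 4 exact E2F octamers, namely TTTCGCGC as well as TTTGGCGC, then TTTCCCGC, and finally TTTGCCGC. A window was at hand for 37 of the 42 members. An E2F octamer stood in 15 of them (40.5%), against 2.6% of the 27025 genes of the table, and a CCAAT box in 23 (62.2%) against 41.1%. The CHR element of late cell-cycle genes, searched as TTTGAA and also as TTCGAA, stood in 18.9% of member promoters and 21.7% of all. Among genes of mitosis these shares were 4.35% for the E2F octamers and 69.6% for the CHR. These counts describe letters in a window, not bound sites.

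The 200 bases upstream of the start are shown for 4 subunits of the MCM ring, because these partners in a single complex behaved differently on the arrays: Mcm2 and Mcm5 were higher in STAM-NON mice, Mcm6 came close to the threshold, and Mcm7 was flat. Capitals mark E2F octamers and CCAAT boxes on either strand (a CCAAT box on the other strand reads ATTGG), and each stretch is written 5′ to 3′ along its gene.
Mcm2, chr6:88898781-88898980, minus strand: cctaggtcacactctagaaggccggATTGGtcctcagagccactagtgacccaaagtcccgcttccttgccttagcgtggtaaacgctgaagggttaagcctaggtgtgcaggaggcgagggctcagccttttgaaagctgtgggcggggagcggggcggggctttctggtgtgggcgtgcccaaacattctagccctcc
Mcm5, chr8:75109309-75109508, plus strand: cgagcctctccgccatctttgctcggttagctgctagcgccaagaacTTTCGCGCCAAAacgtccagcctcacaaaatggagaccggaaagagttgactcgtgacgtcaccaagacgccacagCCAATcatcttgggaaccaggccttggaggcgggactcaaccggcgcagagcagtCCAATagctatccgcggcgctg
Mcm6, chr1:128359706-128359905, minus strand: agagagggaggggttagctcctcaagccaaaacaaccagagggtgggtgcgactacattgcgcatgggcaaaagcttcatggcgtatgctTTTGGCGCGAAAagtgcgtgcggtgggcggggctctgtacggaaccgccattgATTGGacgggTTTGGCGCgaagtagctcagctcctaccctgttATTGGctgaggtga
Mcm7, chr5:138171884-138172083, minus strand: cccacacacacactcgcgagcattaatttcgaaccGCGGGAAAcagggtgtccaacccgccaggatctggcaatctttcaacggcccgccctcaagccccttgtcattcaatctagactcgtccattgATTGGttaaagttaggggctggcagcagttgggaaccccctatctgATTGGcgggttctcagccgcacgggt

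In the Mcm5 promoter 2 octamers on opposite strands overlapped, 153 and 149 bases before the start, and formed the run TTTCGCGCCAAA. The Mcm6 promoter held the same run on the other strand, TTTGGCGCGAAA, whose first base lay 110 bases before the start, and a further octamer 47 bases before it. This run was carried by 4 of the 27025 genes with a window (0.0148%), and 2 of those were members; the run was chosen after the matches had been seen. The Mcm7 stretch had 1 octamer, 165 bases before the start, and the Mcm2 stretch had none of the 4 octamers but 1 CCAAT box. Mcm7 has a second annotated start, and the window of that start held none of the 4 octamers. Whether octamers in a window went with the differences of the ring subunits was not tested.

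Values are written as centred log2 signal, which is log2 of a probe's background-subtracted intensity minus the 75th percentile of its array. Each probe binds its target with its own strength, so levels were compared between mice and not between genes. In bulk liver a change in the number of cells of a type and a change in RNA per cell cannot be told apart. A probe was tested where it was well above background on all 3 arrays of at least 1 group, and a gene was called where limma's adjusted p (Benjamini-Hochberg over 26277 tested probes) was under 0.05. Between 35 and 38 of the 42 member probes were detected on each array, although the share of all spots well above background ranged from 46.2% to 65.0%. Member probes were tested for 36 genes; the other 6 count below as not called. All STAM arrays shared a slide and, in the file headers, a scan date, and all Normal arrays shared another slide and another scan date. Slide, scan and group therefore cannot be told apart in any comparison with Normal, while STAM-INS and STAM-NON shared both slide and scan date. STAM-NON and STAM-INS are compared with the same 3 Normal mice, so these comparisons are not independent.

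Against Normal, 4 of 42 members were called higher and 2 lower in STAM-NON. Of the 13382 genes with a tested probe, 7.93% were called higher and 8.4% lower, beside 9.5% and 4.8% of the 42 members. The members' shares count the 6 untested genes as not called, whereas the shares of all genes leave untested genes out. With so few calls, neither count is read as a departure from the background. Of the 42 members, 11 lay wholly above Normal and 5 wholly below, against 12.4% and 17.1% of all genes. By this measure the share of higher members was above that of all genes and the share of lower members below it. Neither was tested. Over the 42 members the median difference was 0.17 (log2), beside -0.11 over all genes. Centring the arrays on the median or on the percentile of detected probes shifted the median of all genes to -0.27 and 0.05. The members' median stood 0.28 above that of all genes throughout. Such centring moves all genes of an array alike, so this gap could not change. Under scalings that can change it, the gap was 0.24 with quantile normalisation and 0.20 with normexp background correction. The split of the calls moved with the scaling, from 4 higher and 2 lower to 1 higher and 2 lower with median centring, 5 and 1 with the percentile of detected probes, and 5 and 4 with normexp background correction.

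**Figure D1:**
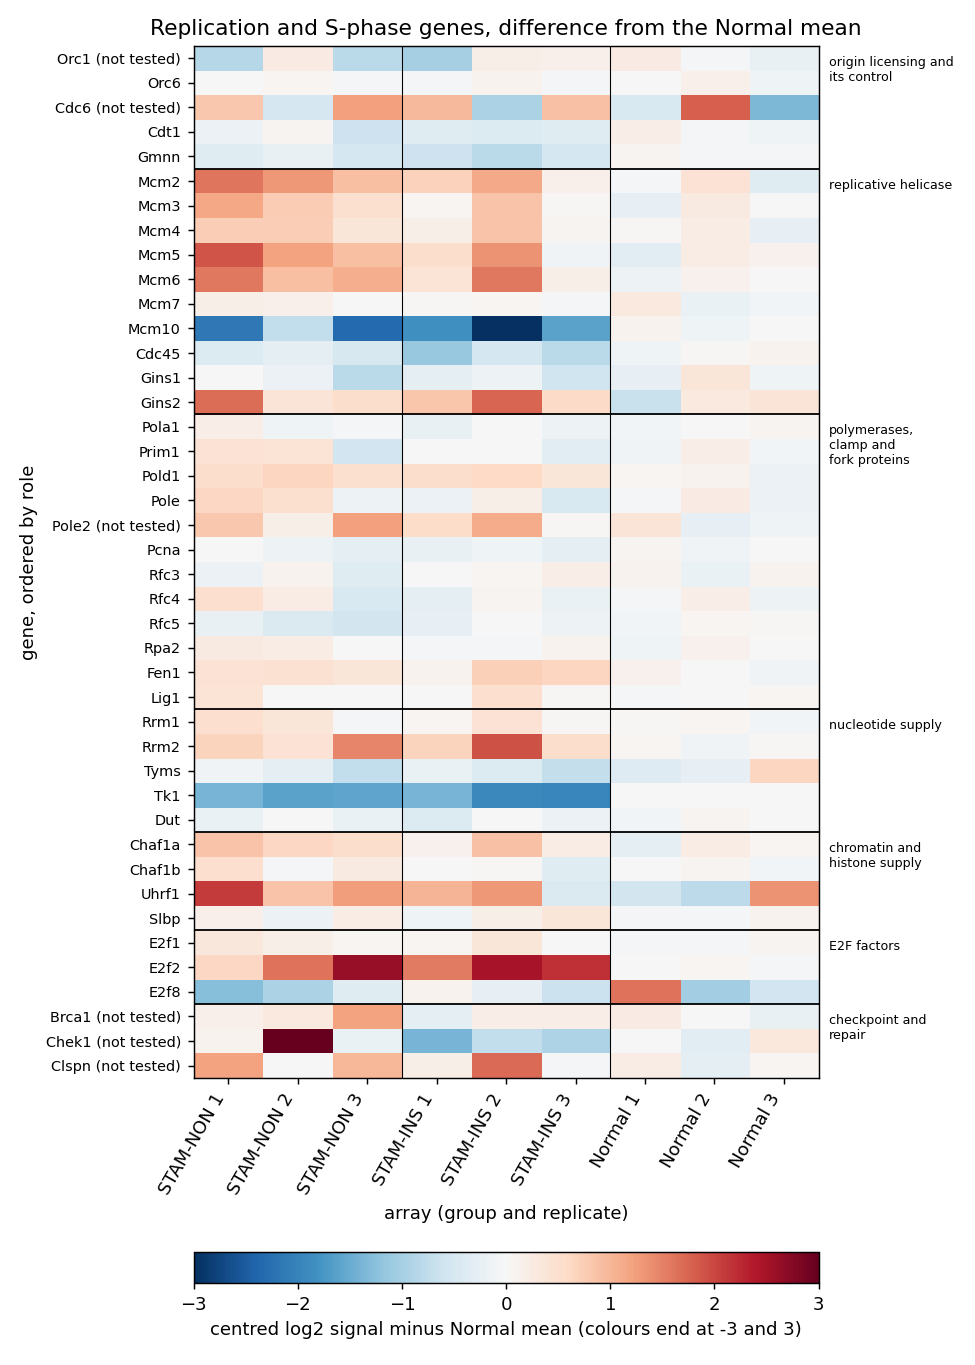
Each row is 1 of the 42 genes, grouped by role, and each column 1 mouse; colour gives the centred log2 signal minus the mean of the Normal mice, red for higher and blue for lower. In the STAM-NON columns Mcm2 to Mcm6 and E2f2 are red, and in all STAM columns E2f2 is red and Mcm10 and Tk1 are blue. STAM-INS replicate 3 is near Normal over Mcm2 to Mcm7, with Mcm5 and Mcm7 slightly below the Normal mean. Most other rows are pale, and genes marked as not tested were too dim for the test.

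Of the 6 subunits of the MCM ring, 2 were called higher in STAM-NON mice (Mcm5 and Mcm2), 3 had positive differences that did not pass (Mcm3, Mcm4 and Mcm6), and Mcm7 was close to Normal. Mcm5 read 0.52, -0.15 and -0.44 in the STAM-NON mice, -0.83, -0.01 and -1.45 in the STAM-INS mice, and -1.70, -1.14 and -1.22 in the Normal mice. All 3 STAM-NON mice were above all Normal mice, and 1 STAM-INS mouse fell within the Normal range. The difference between STAM-NON and Normal was 1.33 ± 0.38 (log2, SE), a 2.52-fold rise (limma adjusted p = 0.0487).

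Mcm2 read -0.04, -0.36 and -0.75 in STAM-NON, -0.97, -0.51 and -1.51 in STAM-INS, and -1.71, -1.22 and -2.02 in Normal mice. STAM-NON again lay wholly above Normal, by 1.27 ± 0.31 or 2.41-fold (limma adjusted p = 0.0308). Mcm6 read 3.49, 2.79 and 2.98 in STAM-NON, 2.30, 3.49 and 2.07 in STAM-INS, and 1.75, 2.03 and 1.90 in Normal mice. Every STAM mouse exceeded every Normal mouse, yet the difference of 1.19 ± 0.35 for STAM-NON did not pass (limma adjusted p = 0.0529).

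Mcm3 and Mcm4 showed the same order of groups with smaller differences. For Mcm3 the STAM-NON minus Normal difference was 0.81 ± 0.27 (limma adjusted p = 0.0717), and for Mcm4 it was 0.61 ± 0.23 (0.0973). Both were higher in each STAM-NON mouse than in any Normal mouse. Mcm7, the sixth subunit of the ring, read 2.59, 2.55 and 2.42 in STAM-NON, 2.44, 2.47 and 2.35 in STAM-INS, and 2.69, 2.21 and 2.31 in Normal mice. Its difference of 0.11, with a 95% interval from -0.21 to 0.43, ended below the differences of Mcm2 and Mcm5.

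Individual mice differed within the STAM groups. For Mcm2, Mcm3 and Mcm5 the highest STAM value was in STAM-NON replicate 1, and for Mcm4 and Mcm6 it was in STAM-INS replicate 2. The lowest STAM value of all 6 ring subunits was in STAM-INS replicate 3. Averaged over the whole ring, Mcm2 to Mcm7, the difference from the Normal mean was 1.20, 0.84 and 0.63 in the STAM-NON mice and 0.315, 0.97 and 0.05 in the STAM-INS mice, while single Normal mice lay between -0.10 and 0.18. In this average 2 of 3 STAM-INS mice were below every STAM-NON mouse and the remaining mouse was above all but one.

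**Figure D2:**
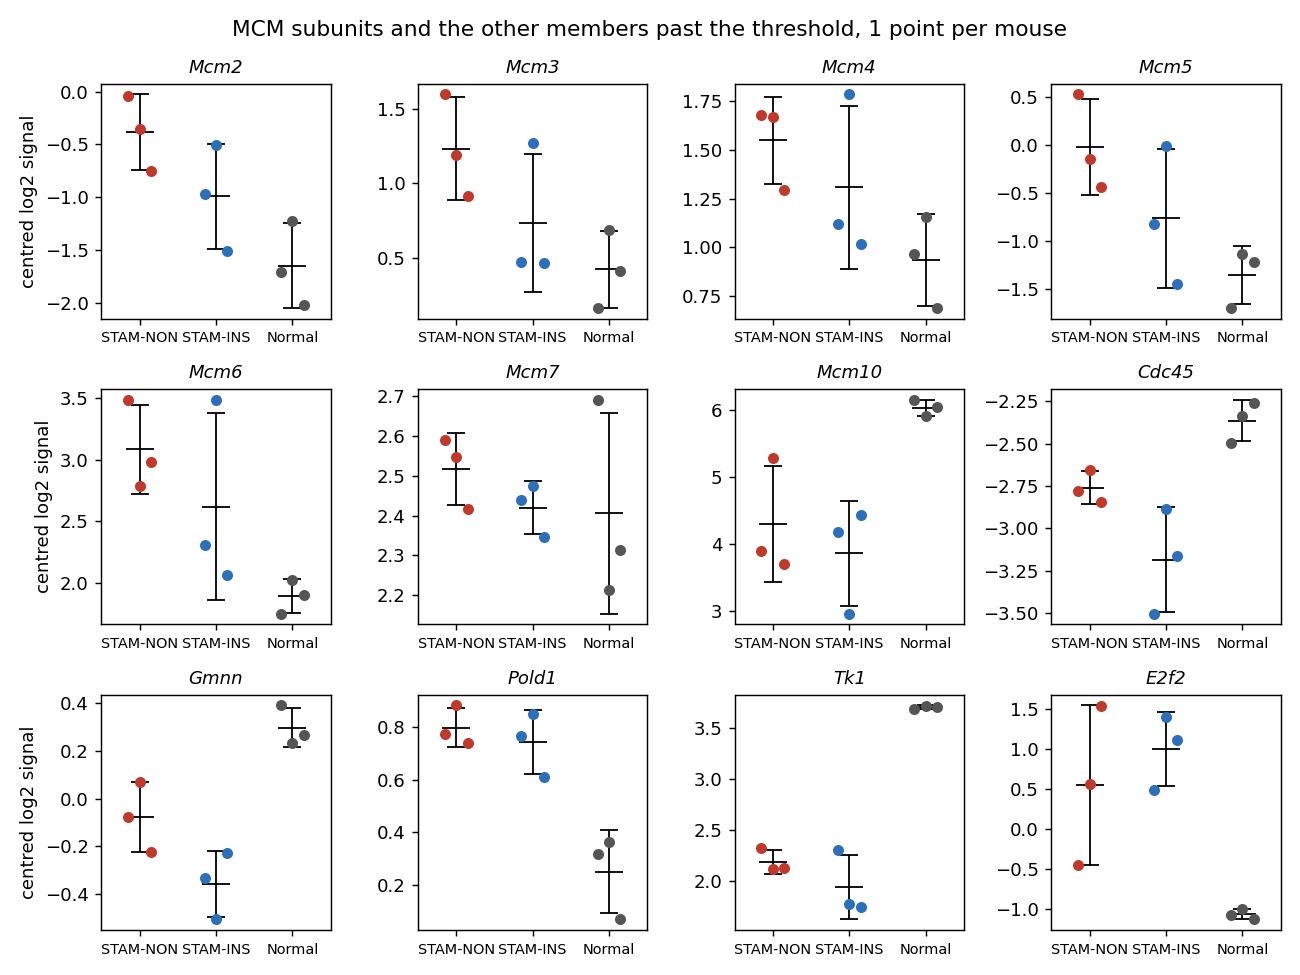
Centred log2 signal of the 6 MCM ring subunits and of the other members called against Normal, with 1 point per mouse and the mean ± SD of 3 mice per group; each panel has its own scale, which does not start at 0. The means of Mcm2 to Mcm6 step down from STAM-NON to STAM-INS to Normal, Mcm7 spans less than 0.5 in all, and Mcm10 and Tk1 lie highest in Normal mice.

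The loading and activating factors of the ring went the other way or were not called. Mcm10, which helps to activate the helicase and to recruit the primase-polymerase, read 3.90, 5.28 and 3.70 in STAM-NON, 4.18, 2.96 and 4.43 in STAM-INS, and 6.14, 5.91 and 6.03 in Normal mice. Both STAM groups lay wholly below Normal, and the STAM mice were also much more spread, with an SD of 0.86 in STAM-NON and 0.79 in STAM-INS against 0.12 in Normal. The level was 3.33-fold lower in STAM-NON (difference -1.74 ± 0.48, limma adjusted p = 0.0439) and 4.51-fold lower in STAM-INS (-2.17 ± 0.48, 0.0241).

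Cdc45, the helicase cofactor, read -2.78, -2.66 and -2.85 in STAM-NON, -3.50, -2.89 and -3.16 in STAM-INS, and -2.5, -2.34 and -2.26 in Normal mice. The 3 groups did not overlap at all. STAM-INS differed from Normal by -0.82 (SE 0.16, limma adjusted p = 0.018), and the STAM-NON difference was -0.40 (0.124). Of the GINS subunits, Gins1 differed by -0.33 between STAM-NON and Normal (limma adjusted p = 0.365). Gins2 was detected on all 6 STAM arrays but on 2 of 3 Normal arrays, and its difference of 0.86 did not pass (limma adjusted p = 0.201); its probe entered the test through the STAM groups alone.

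Origin licensing held a single call. Gmnn, the inhibitor of Cdt1, read -0.08, 0.07 and -0.22 in STAM-NON, -0.33, -0.50 and -0.23 in STAM-INS, and 0.39, 0.23 and 0.27 in Normal mice. All STAM-INS mice lay below all STAM-NON mice, and those below all Normal mice. The STAM-INS level was lower than Normal, with a difference of -0.65 (SE 0.12, limma adjusted p = 0.0156), while the difference of -0.37 for STAM-NON did not pass (0.0726). Cdt1 differed by -0.23 in STAM-NON and -0.39 in STAM-INS, and Orc6 by 0.01 in both; none of these passed.

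Orc1 was not well above background on any array, and Cdc6 was detected on 2 STAM-NON, 1 STAM-INS and 1 Normal array. These genes act at the first step of licensing, and no direction is given for them. A second Cdc6 probe, also untested, lay at -0.82 in STAM-INS replicate 2 and between -5.89 and -4.38 on the other arrays.

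Among the polymerases, clamp and fork proteins 1 of 12 was called. Pold1, the catalytic subunit of polymerase delta, read 0.77, 0.88 and 0.74 in STAM-NON, 0.77, 0.85 and 0.61 in STAM-INS, and 0.32, 0.36 and 0.07 in Normal mice. Every STAM mouse was above every Normal mouse. The rise was 1.46-fold in STAM-NON (difference 0.55 ± 0.12, limma adjusted p = 0.0261) and 1.41-fold in STAM-INS (0.49 ± 0.12, 0.035).

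No other fork gene was called. Pcna, the sliding clamp and a common marker of cycling cells, read 3.42, 3.24 and 3.14 in STAM-NON, 3.17, 3.27 and 3.12 in STAM-INS, and 3.49, 3.30 and 3.41 in Normal mice, and STAM-NON and Normal mice overlapped. Its 95% interval for STAM-NON minus Normal ran from -0.40 to 0.13. All STAM-INS mice lay below all Normal mice, with a difference of -0.21 that did not pass (limma adjusted p = 0.242). Among tested genes of this role the largest positive difference that did not pass was that of Fen1, the flap nuclease of Okazaki fragment processing, at 0.41 (limma adjusted p = 0.122), and the largest negative one was that of the clamp loader subunit Rfc5 at -0.40 (0.0626). For Fen1 and Rfc5 the STAM-NON and Normal mice did not overlap. Pola1, Prim1, Pole, Rfc3, Rfc4, Rpa2 and Lig1 differed by -0.14 to 0.32. For all 11 tested genes of this role the interval of the STAM-NON difference lay within 1 log2 unit of 0 on either side.

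Pole2, the second subunit of polymerase epsilon, was detected on 2 STAM-NON, 2 STAM-INS and no Normal arrays and was too dim to be tested. Its mean signal in STAM-NON was at least 1.37-fold that of Normal mice, a bound set by the lowest detected signal of each Normal array. Single mice of these groups overlapped, however, with -3.99 in STAM-NON replicate 2 and -3.79 in Normal replicate 1. No direction is therefore given for Pole2.

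In nucleotide supply the clearest change was a fall. Tk1, the thymidine kinase of the salvage pathway, read 2.32, 2.11 and 2.12 in STAM-NON, 2.30, 1.77 and 1.74 in STAM-INS, and 3.68, 3.72 and 3.71 in Normal mice. The Normal mice were nearly identical, and every STAM mouse was more than 1 log2 unit below them. Tk1 was 2.87-fold lower in STAM-NON (difference -1.52 ± 0.16, limma adjusted p = 0.00395) and 3.40-fold lower in STAM-INS (-1.77 ± 0.16, 0.00187).

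Rrm2, the cell-cycle-regulated subunit of ribonucleotide reductase, read 1.35, 1.11 and 2.15 in STAM-NON, 1.35, 2.60 and 1.21 in STAM-INS, and 0.75, 0.58 and 0.73 in Normal mice. All STAM mice lay above Normal, but with a spread that kept the differences of 0.85 and 1.03 from passing (limma adjusted p = 0.153 and 0.106). Its partner Rrm1 differed by 0.27, Tyms by -0.37 and Dut by -0.14 between STAM-NON and Normal, none of them called. Thus Rrm2 and Tk1, which supply nucleotides by synthesis and by salvage, lay on opposite sides of Normal in all 6 STAM mice.

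The annotation places Tk1 in overlap with Afmid, a gene of tryptophan breakdown. The Afmid probe was lower than Normal, with differences of -1.63 in STAM-NON (limma adjusted p = 0.0134) and -1.60 in STAM-INS (0.0114), close to the Tk1 differences. It read 1.99, 1.83 and 1.76 in STAM-NON, 2.44, 1.24 and 1.99 in STAM-INS, and 3.34, 3.75 and 3.37 in Normal mice. Afmid was looked up after the Tk1 values had been seen, and its part in the Tk1 signal was not tested. Syngr2, within 2 kb of Tk1, was also lower in STAM-NON (difference -0.36, limma adjusted p = 0.0481), and its STAM-INS difference did not pass (-0.30, 0.0884). For Mcm10 no annotated gene lay within 2 kb. Mcm7 overlaps Ap4m1, which was lower in STAM-NON (-0.70, limma adjusted p = 0.0205) and not called in STAM-INS (-0.24, 0.286). The part of Ap4m1 in the Mcm7 signal was not tested.

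The chromatin genes gave no call. Uhrf1, which brings the maintenance DNA methyltransferase to newly copied DNA, had the largest difference of this role at 1.40 (limma adjusted p = 0.162). It read 0.19, -1.07 and -0.66 in STAM-NON, -0.91, -0.60 and -2.35 in STAM-INS, and -2.46, -2.71 and -0.58 in Normal mice, so that 1 Normal mouse lay within the STAM range and 1 STAM-INS mouse near the low Normal mice. Chaf1a, the large subunit of the histone chaperone CAF-1, differed by 0.66 (limma adjusted p = 0.0726) with no overlap between STAM-NON and Normal. Chaf1b differed by 0.25 and Slbp, which binds histone mRNA, by 0.07.

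E2f2 was the member with the largest rise. It read -0.46, 0.56 and 1.54 in STAM-NON, 0.49, 1.40 and 1.12 in STAM-INS, and -1.08, -1.0 and -1.12 in Normal mice. The Normal mice were tightly grouped (SD 0.06), the STAM-NON mice were widely spread (SD 1.0), and no STAM mouse reached down to Normal. E2f2 was 3.07-fold higher in STAM-NON (difference 1.62 ± 0.45, limma adjusted p = 0.0455) and 4.2-fold higher in STAM-INS (2.07 ± 0.45, 0.0233). The summed level of the 6 erythroid markers (log2 of the summed signals) was 6.45, 8.29 and 9.39 in the same STAM-NON mice, 6.79, 9.79 and 8.91 in the STAM-INS mice, and 7.05, 7.09 and 7.21 in the Normal mice. Among the STAM mice it ran in the order of E2f2 except for the 2 highest mice, while in replicate 1 of both STAM groups it was below Normal and E2f2 above. The part of erythroid cells in the E2f2 values was not tested. E2f1, the other activating factor of the list, differed by 0.19 in STAM-NON and 0.15 in STAM-INS, with 95% intervals that ended at 0.49 and 0.45. E2f8, a repressor of S-phase genes, ranged from -0.82 to 0.56 in the STAM mice, and its Normal values of 2.08, -0.58 and -0.13 rested on 1 high mouse; its difference was -0.86 (limma adjusted p = 0.346).

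The 3 checkpoint and repair genes could not be tested. Brca1 and Clspn were not well above background on any array. Chek1, the S-phase checkpoint kinase, was detected on 1 array alone, that of STAM-NON replicate 2, at -1.78, while the other 8 arrays lay between -6.30 and -4.59.

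Promoter letters were set beside the calls as a description, and the difference between members with and without an octamer was not tested. Of the 15 members with an E2F octamer in the window, 11 had a tested probe, and 3 were called higher and none lower in STAM-NON. Of the 22 members with a window but no octamer, 20 had a tested probe, and 1 was called higher and 2 lower. Over all tested genes 7.93% were called higher and 8.4% lower. The median differences, untested members included, were 0.55 and 0.09 in STAM-NON and 0.31 and -0.10 in STAM-INS against Normal, beside -0.11 and -0.05 over all genes. Mcm5, Pold1 and E2f2 belong to the first kind, and Mcm2, Mcm10 and Tk1 to the second.

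STAM-INS was compared with Normal to see where the replication genes lay after insulin. Of the 42 members 2 were called higher (Pold1 and E2f2) and 4 lower (Tk1, Mcm10, Cdc45 and Gmnn), which is 4.8% and 9.5%. Over all tested genes 6.17% were called higher and 7.29% lower, while the 6 untested members again count as not called. The groups did not overlap for 5 members that were higher and 7 that were lower, beside 13.7% and 18.1% of all genes. The members' median difference was 0.03, beside -0.05 for all genes. Mcm2 and Mcm5, called in STAM-NON, differed from Normal by 0.66 (limma adjusted p = 0.176) and 0.59 (0.311) in STAM-INS.

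STAM-INS against STAM-NON asks what insulin treatment changed within the model. By limma no member was called, against 0.0224% of tested genes called higher and 0.0598% called lower, and the lowest adjusted p among members was 0.532. At an unadjusted p under 0.05 there was 1 member, Cdc45, with a difference of -0.42 (limma adjusted p = 0.532). Of the 26277 tested probes, 2309 had an unadjusted p under 0.05, so this count is not read as a result about the members. Of the 42 differences 31 were below 0 and 11 above, and their median was -0.15 beside 0.05 over all genes. The ring subunits were among the lower ones, with -0.61 for Mcm2, -0.50 for Mcm3, -0.24 for Mcm4, -0.74 for Mcm5 and -0.47 for Mcm6, and all of these groups overlapped.

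How firmly a change could be seen differed by gene. For 25 of the 36 tested members the 95% interval of the STAM-INS minus STAM-NON difference lay within 1 log2 unit of 0. For Mcm5 it ran from -1.61 to 0.13 and for Mcm10 from -1.52 to 0.65, which leaves room for sizeable changes in either gene. In the licensing role the largest differences were -0.28 for Gmnn and 0.25 for the undetected Orc1. Uhrf1 at -0.77 and Slbp at 0.07 in the chromatin role, Pole at -0.47 and Rfc5 at 0.27 in the fork role, Tk1 at -0.25 and Rrm2 at 0.18 in nucleotide supply, E2f1 at -0.04 and E2f8 at 0.60 among the E2F factors, and Mcm5 at -0.74 and Gins2 at 0.19 in the helicase role were the other extremes among tested genes; none passed (limma adjusted p from 0.584 upwards). The largest difference of any member was -2.04 for the untested Chek1, whose STAM-INS values all lay below those of STAM-NON; it was detected on none of the STAM-INS arrays and on 1 STAM-NON array, and was too dim to be tested.

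**Figure D3:**
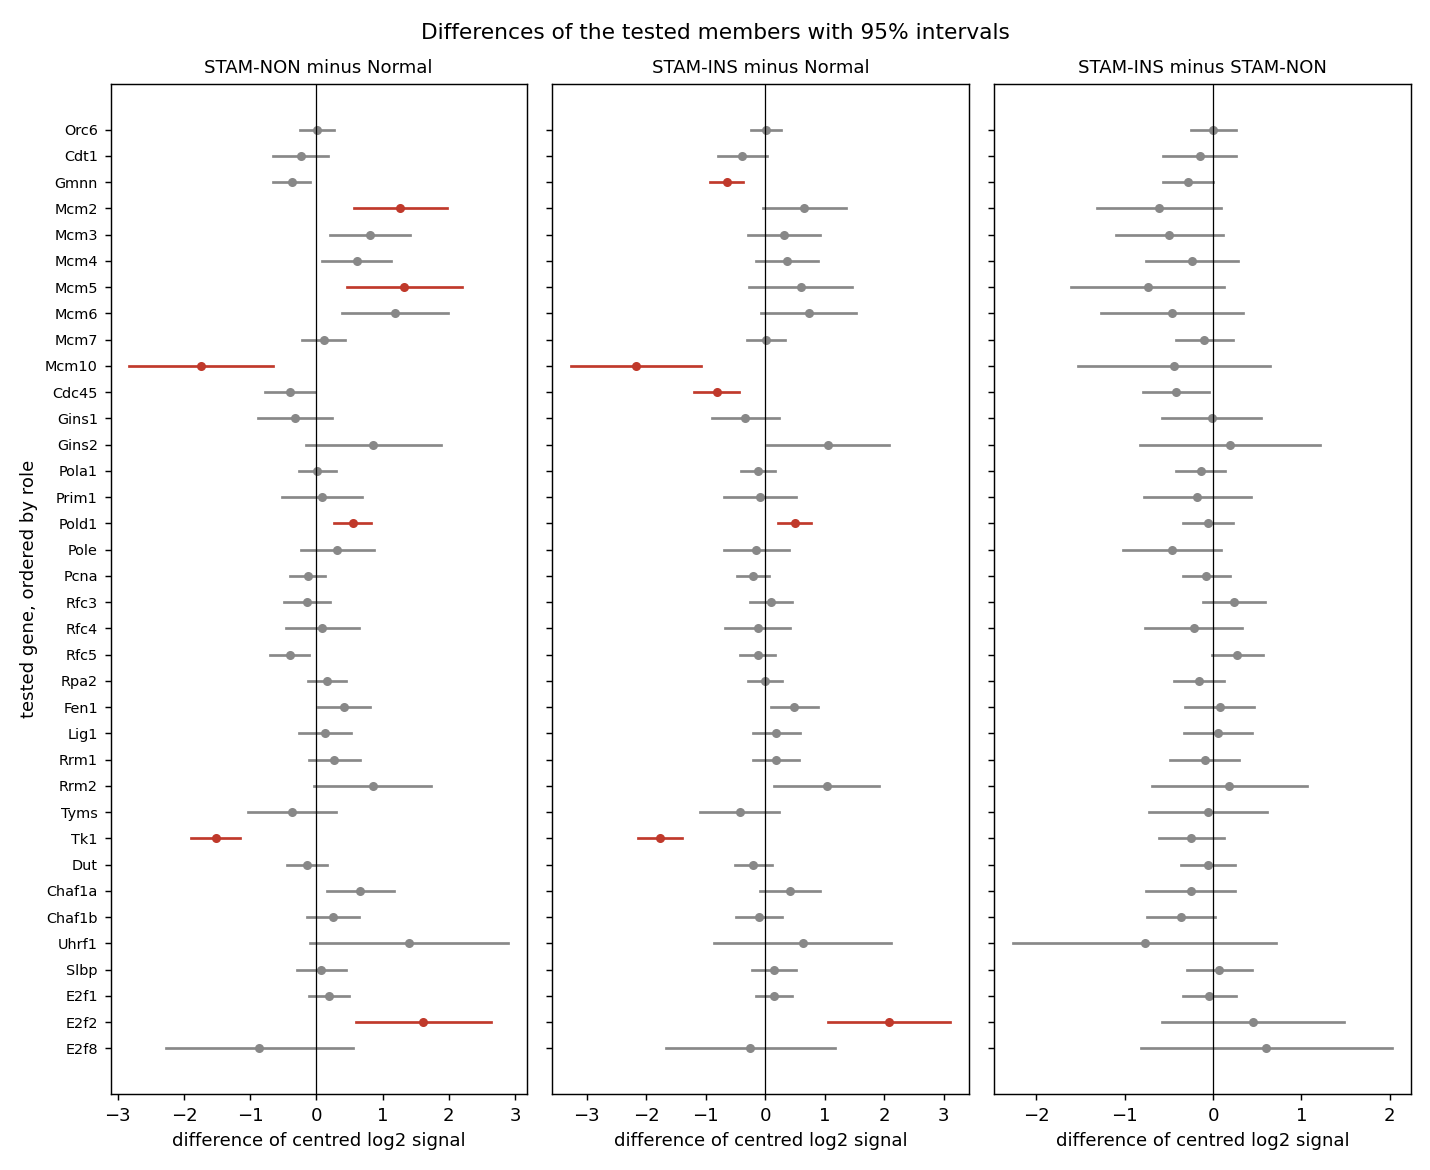
Differences of centred log2 signal for the 36 tested members in the 3 comparisons, with 95% intervals from limma that are not adjusted for the number of genes; red marks an adjusted p under 0.05. In the comparison of STAM-INS with STAM-NON all genes are grey, and the points of Mcm2 to Mcm6 lie to the left of 0.

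Replication genes outside the 42 showed a similarly mixed picture. Of 52 further genes of replication and S phase, 5 were called higher (9.6%) and 3 lower (5.8%) in STAM-NON against Normal, with a median difference of -0.02. Of all tested genes 7.93% were called higher and 8.4% lower. Asf1b, a histone chaperone, was higher by 1.70 (limma adjusted p = 0.0215), Timeless, of the fork protection complex, by 0.84 (0.0228) and the maintenance methyltransferase Dnmt1 by 0.56 (0.0377). Ticrr, a firing factor of origins, was detected on 3 STAM-NON, 1 STAM-INS and no Normal arrays, and its STAM-NON signal was at least 1.47-fold that of Normal mice (limma adjusted p = 0.011). Its probe entered the test through STAM-NON alone, so this call, 1 of the 5, supports nothing about the list. Wdhd1, an anchor of polymerase alpha at the fork, was lower, with a difference of -0.58 (limma adjusted p = 0.048), and so was the nucleotide pyrophosphatase Dctpp1 with -0.54 (0.0436). The other calls were a rise of Samhd1 and a fall of Gins3. In STAM-INS against Normal 2 of the 52 were higher (3.8%) and 1 lower (1.9%), beside 6.17% and 7.29% of all tested genes. Between the STAM groups none was called. At an unadjusted p under 0.05 there were 2, beside 2309 of the 26277 tested probes.

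The mitotic genes, which act at the end of the same cell cycle, had larger differences from Normal than the replication genes. Their median difference over 30 genes was 1.35 in STAM-NON and 1.64 in STAM-INS, and 28 and 29 of the 30 lay above 0. Of the 30 probes 12 were not tested, and single calls were few. The share called higher was 3.3% in STAM-NON and 16.7% in STAM-INS, beside 7.93% and 6.17% of all tested genes. In STAM-NON Aurka passed (difference 1.39, limma adjusted p = 0.0473). In STAM-INS 5 genes passed, among them the mitotic kinase Plk1 with a difference of 2.64 (limma adjusted p = 0.0361), Prc1 with 2.58 (0.0417), cyclin B1, Ccnb1, with 2.57 (0.0384) and Cdc20 with 2.35 (0.0453), beside Aurka. The Ccnb1 probe was detected on all STAM arrays but on 1 of 3 Normal arrays, so it entered the test through the STAM groups alone and its difference rests on Normal values that were mostly not well above background. The proliferation marker Mki67 read 0.87, -1.25 and 1.41 in STAM-NON, 0.10, 1.60 and -0.52 in STAM-INS, and -1.85, -1.62 and -1.70 in Normal mice (limma adjusted p = 0.0808 and 0.0822 against Normal).

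Mouse by mouse, the ring subunits and the mitotic genes did not follow a single order. Averaged over the 30 mitotic genes, the difference from the Normal mean was 1.89, 0.23 and 1.79 in the STAM-NON mice and 1.30, 2.60 and 0.90 in the STAM-INS mice. STAM-NON replicate 2 had the lowest mitotic average of all STAM mice, at 0.23, and a ring average (Mcm2 to Mcm7) of 0.84. STAM-INS replicate 2 was highest in the mitotic average and second in the ring average. Over all 42 members the average stayed within -0.09 and 0.33 in every STAM mouse.

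**Figure D4:**
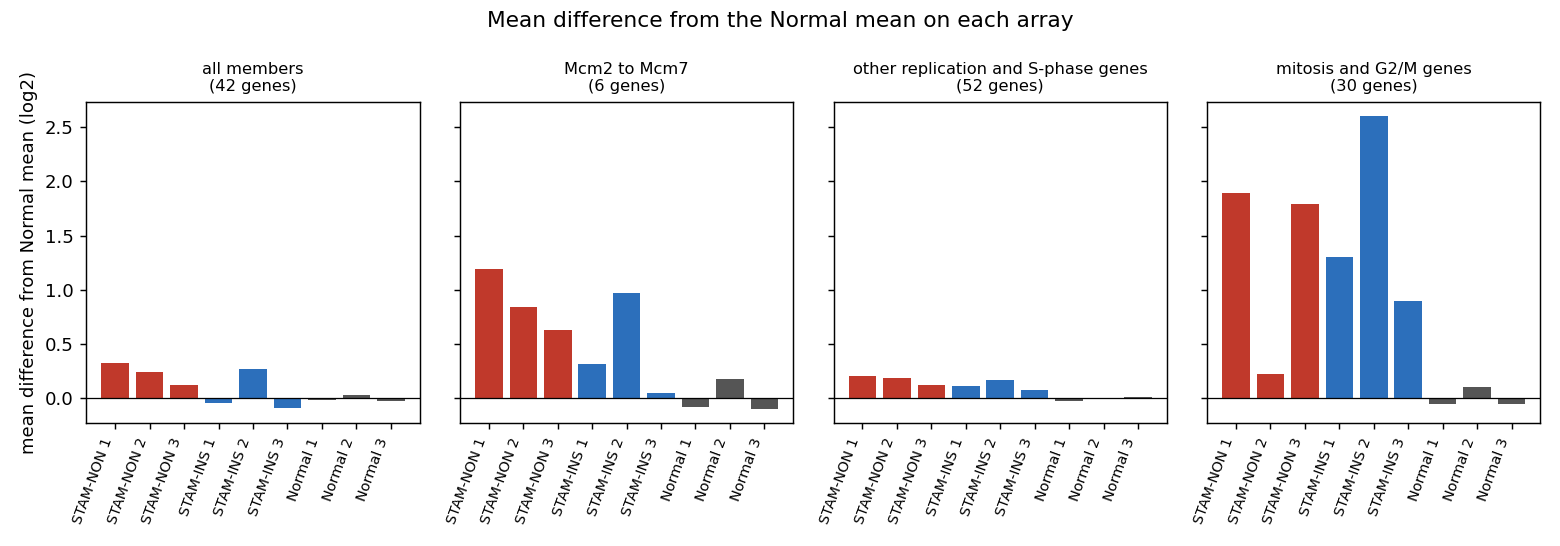
Bars give, for each mouse, the mean over a gene list of the centred log2 signal minus the Normal mean, for all 42 members, Mcm2 to Mcm7, the 52 other replication genes and the 30 mitotic genes. The mitotic bars reach 2.60 and the Mcm2 to Mcm7 bars 1.20, whereas those of all members stay at 0.33 or less.

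Among the 22 genes that regulate E2F, 4 were called higher (18.2%) and 2 lower (9.1%) in STAM-NON, beside 7.93% and 8.4% of all tested genes. Cdkn1a (p21), an inhibitor of cyclin-dependent kinases and of Pcna, read 1.25, 1.56 and 2.0 in STAM-NON, 1.07, 2.57 and 2.09 in STAM-INS, and -3.33, -3.33 and -3.54 in Normal mice. It was thus higher by 5.0 (limma adjusted p = 0.00122) and 5.31 (0.00105) in the STAM groups. A second Cdkn1a probe also lay higher in every STAM mouse than in any Normal mouse. The pocket protein Rbl1 was higher in STAM-NON by 1.56 (limma adjusted p = 0.0206), though its probe, detected on 2 of 3 Normal arrays, entered the test through the STAM groups alone. Also higher were cyclin D1, Ccnd1, by 1.17 (limma adjusted p = 0.0338) and the kinase inhibitor Cdkn2c by 0.77 (0.0271). The repressive factor E2f5 and the E2F partner Tfdp2 were lower, with differences of -1.0 (limma adjusted p = 0.0157) and -0.83 (0.0184). In STAM-INS 3 of the 22 were called higher (13.6%) and 2 lower (9.1%) against Normal, beside 6.17% and 7.29% of all tested genes. Cyclin E1, Ccne1, differed by 0.05 in STAM-NON (limma adjusted p = 0.944).

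Marker genes of the cell types of the liver were read on the same arrays. All 10 hepatocyte markers were detected on every array, and their summed level (log2 of the summed signals) lay between 11.9 and 12.3 in STAM-NON, 12.1 and 12.3 in STAM-INS, and 12.4 and 12.5 in Normal mice, with 2 of 10 called lower in STAM-NON and 1 in STAM-INS. Kupffer cell markers lay at 7.30 to 8.16 in STAM-NON, 6.98 to 8.34 in STAM-INS and 6.16 to 6.79 in Normal mice, with 2 of 7 called higher in each STAM group. For monocyte-derived macrophages the ranges were 3.49 to 4.32, 3.91 to 4.06 and 3.16 to 3.30, with 4 of 7 called higher in STAM-NON and 1 in STAM-INS. Neutrophil markers spanned 2.52 to 7.58, 2.81 to 4.61 and 1.54 to 1.77 with none of 5 called, and erythroid markers 6.45 to 9.39, 6.79 to 9.79 and 7.05 to 7.21 with none of 6 called. Markers of fetal liver and liver tumours spanned 3.07 to 7.38, 5.54 to 6.83 and 1.12 to 1.42, with 1 and 2 of 5 called higher. Stellate cell markers lay at 3.35 to 4.07, 2.54 to 3.84 and 2.22 to 3.13 with none of 6 called, and biliary markers at 0.67 to 1.5, 0.90 to 1.15 and -0.23 to 0.74 with 2 of 6 called higher in STAM-NON and 1 in STAM-INS. Endothelial markers had 1 of 6 called higher in STAM-NON and T cell and NK cell markers 1 of 8 in each STAM group, while no B cell or plasma cell marker was called. No list had a marker that was undetected on all arrays. The part of any of these cells in the values of E2f2, the ring subunits or the other members was not tested.

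Most of the member calls were lost when some single mouse was left out. Each such fit has fewer arrays, and STAM-NON calls were also lost without STAM-INS mice, which do not enter that difference. A lost call therefore need not mean that the difference rested on the mouse left out. For E2f2 in STAM-NON the difference stayed between 1.59 and 1.65 without a Normal mouse, though the call was lost. Without any 1 of the 3 Normal mice, Tk1 was the only member still called in STAM-NON, with differences of -1.53 to -1.51. It was also the only member called in STAM-NON without a filter on dim probes (limma adjusted p = 0.028) and with slide row as a block (0.0269). Mcm2 also lost its call without STAM-NON replicate 1 (difference 1.1, limma adjusted p = 0.0901), Mcm5 without any 1 of the STAM-NON mice or Normal mice (differences from 1.06 to 1.54, limma adjusted p up to 0.135) and without STAM-INS replicate 1, and Mcm10 without STAM-NON replicate 1 or 3 (-1.54 and -1.44, 0.121 and 0.118) or STAM-INS replicate 1 or 3. Pold1 lost it without STAM-NON replicate 1 or 3 (0.56 and 0.58, limma adjusted p = 0.064 and 0.0526), and E2f2 without STAM-NON replicate 2 or 3 (1.61 and 1.12, 0.0685 and 0.087) or any STAM-INS mouse. In STAM-INS against Normal, Cdc45 and Tk1 stayed called without STAM-INS replicate 2 and Gmnn, Mcm10, Pold1 and E2f2 did not, with differences of -0.58, -1.72, 0.44 and 1.87. Without Normal replicate 1 Cdc45 and Tk1 stayed, without Normal replicate 2 Gmnn and Tk1, and without Normal replicate 3 Tk1 alone. Pold1 was further lost without STAM-INS replicate 1 or 3 (0.48 and 0.56, limma adjusted p = 0.0847 and 0.0538), and E2f2 without STAM-INS replicate 3 (2.01, 0.0631). No difference of a called gene changed sign when a mouse was left out.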

How the data were processed

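Liver RNA of 9 male mice was measured on one-colour Agilent arrays. The files deposited by the authors hold, per the file headers, the output of Feature Extraction 11.5.1.1 (per the submitters' processing notes): background-subtracted spot intensity on a linear scale, the median intensity of spot and background, and flags. The authors did not normalise these values between arrays, and the study's methods name no normalisation or test. No spot was saturated. Control spots and 161 to 217 flagged spots per array were left out, and spots of 1 probe were averaged. Accessions without versions were matched to a RefSeq table (GRCm38.p6), which named 27645 of 55681 probes; the array was designed on mm9, so the table gave names only. A gene was represented by its probe with the highest mean, tested or not.

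Values are log2 intensity minus the array's 75th percentile. Testing required that a share of 0.5 or more of a probe's spots be well above background on all 3 arrays of a group. The fit with limma 3.58.1 under R 4.3.3 (lmFit, eBayes, two-sided, 6 residual degrees of freedom) was made on all 9 arrays and 26277 probes, and p-values were adjusted by the Benjamini-Hochberg method. The number of arrays limits the precision. Code was tested on simulated data. Bounds ("at least N-fold") divide the mean of the brighter group by that of the dimmer group, in which a value under its array's lowest detected signal was raised to that signal. The alternatives were other centrings, quantile normalisation, normexp (offset 50) on the median spot intensity, since the mean intensity planned for it is not a column here, other filters, variance models, blocks and probes, and leaving out each array.

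The members and lists were chosen with earlier results of these data known. Named are all members past the threshold, the extremes of each role, the members that were dim or passed through STAM groups alone, and, of the other lists, up to 6 called genes with Mki67, Cdkn1a, Ccne1 and Ccnd1.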

Additional observations from a re-analysis of the deposited data

How the results depend on the processing

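No member was called between STAM-INS and STAM-NON by limma under any alternative fitted. At an unadjusted p under 0.05, 1 passed, beside 2309 of the 26277 tested probes. In STAM-NON against Normal 14 of the 36 tested members had an unadjusted p under 0.05, beside 9252 of the 26277 tested probes. The 6 calls became 3 with median centring, 3 with quantile normalisation and 3 with the replicate block. They became 1 to 8 without an array, 1 without a filter on dim probes and 1 with slide row as a block. Slide row and these groups coincide, so that fit rests on the STAM-INS arrays. The members' median of 0.17 became 0.013 with median centring, 0.33 with the percentile of detected probes, 0.30 with E1A spike-in centring and 0.27 with the row block. In STAM-INS against Normal the 6 calls became 1 without the filter and 1 to 6 without an array, and the median went to -0.15 with median centring. No alternative reversed a called member.

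The 52 other replication genes had 8 calls in STAM-NON against Normal. These became 3 with median centring, 4 with E1A centring, 5 with quantile normalisation, 3 with the 2 groups alone, 2 with the replicate block, 0 without the filter or with the row block, and 1 to 6 without an array. Their 3 calls in STAM-INS became 1 with E1A centring, 6 with normexp, 0 without the filter, 9 with array weights, 1 with the replicate block and 0 to 4 without an array. The mitotic list's 1 call in STAM-NON became 0 with E1A centring, quantile normalisation, normexp, no filter, the row block or the replicate block, 3 with probes detected on all arrays, 4 with trended variance and 4 with the 2 groups alone, and 0 to 8 without an array. Its 5 calls in STAM-INS became 2 with E1A centring, 3 with quantile normalisation, 3 with normexp, 0 without the filter, 10 with array weights, 1 with either block and 0 to 11 without an array. For the E2F regulators the 6 calls in STAM-NON became 1 without the filter, 1 with the row block and 1 to 6 without an array, and the 5 in STAM-INS became 3 with normexp, 1 without the filter, 8 with array weights, 2 with the row block, 3 with the replicate block and 2 to 5 without an array. The causes were not tested, apart from fewer arrays or more probes in those fits. Calls over all probes also moved with the setting and are given below only for the blocks in STAM-NON. The list counts under these settings are therefore not read as traits of the lists.

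Arrays with the same replicate number correlated in their deviations between -0.288 and 0.149, so the numbers did not pair the mice. With the replicate block, all probes called in STAM-NON against Normal fell from 4090 to 1962. With slide row as a block they fell to 15, so the loss of member calls there was shared by nearly all probes. Dim probes limit what can be said of Orc1, Cdc6, Pole2, Brca1, Chek1 and Clspn.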
